A study of Mus musculus with 4 samples.

Results

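Th2 cells were the nuclei that carried the label Th2 in the annotation deposited with the series, 90 from tumor-free cecum and 58 from tumor, 148 of 15621 labelled nuclei in all. In the study, colorectal tumor organoids of the genotype labelled AKP, which lack Apc and Trp53, were transplanted into the cecal wall of mice, and T cells were sorted 4 weeks later from the tumor and from the neighbouring tumor-free cecum. Nuclei of the sorted cells were profiled by a droplet multiome assay, in which chromatin accessibility (ATAC, cutting of open DNA by a transposase) and nuclear RNA are read from the same nucleus. Each tissue gave 1 ATAC library, so tissue and library cannot be told apart, and no test over replicates was possible. Both groups carried the same tumor genotype and time, and the cecum came from tumor-bearing mice rather than from mice without a tumor. The host strain, its age and the number of animals behind each library were not given in the sources used here.

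Th2 cells are CD4+ helper T cells that secrete IL-4, IL-5 and IL-13 and are best known from worm infection and allergy. The transcription factor GATA3 directs their differentiation, largely downstream of IL-4 and STAT6, and Il4, Il13 and Il5 lie in one cluster with Rad50, whose introns hold a control region of the cluster. In barrier tissues such cells carry receptors for the epithelial alarm signals IL-33, IL-25 and TSLP, as do group 2 innate lymphoid cells and a part of the regulatory T cells (Treg).

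The labels had been made by clustering the RNA of the same nuclei and were carried over to the ATAC data, so accessibility was a readout that had not entered the choice directly, although it came from the same cells. Values are numbers of ATAC fragments with an end inside a window, per 1000000 fragments of the label in that library (FPM), and a gene window is the gene's span plus 5 kb on each side. More open nuclei and more fragments per open nucleus cannot be told apart in such a sum. A ratio is given as log2 of Th2 over the compared cells with its exact 95% interval, which covers counting error only. A gene was called higher or lower where log2(FPM + 1) differed by more than 2-fold in the same direction in both libraries. The compared cells were the pooled other CD4 types (Mucosal Th1, Th17, Tfh-like, PD1+ CD4, newly activated CD4 and CCR7+ CD4; 1562 nuclei in cecum and 1881 in tumor) and the label IL10- Treg (424 and 737), named as in the annotation and written IL-10- Treg in the plots. The pool of other CD4 types differed in make-up between the libraries: PD1+ CD4 gave 14 of its nuclei in cecum and 616 in tumor (0.892% and 43.7% of its fragments), and Mucosal Th1 904 and 196 nuclei. Ratios were therefore also taken without PD1+ CD4, a choice made after seeing the data.

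The cecum library held 66466111 fragments and the tumor library 96747563, of which 66.2% and 64.2% fell in labelled nuclei, with medians of 4374 and 5846 fragments per nucleus. Of the labelled barcodes, 84 occurred in both libraries, and none of these was a Th2 cell. Th2 cells gave 568803 fragments in cecum (median 4520 per nucleus, 235 to 25463) and 438981 in tumor (median 6294, 300 to 20553). In cecum 12 of the 90 Th2 nuclei lay above 3 times their library's median and in tumor 2 of 58 did.

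Th2 cells were a small population in both tissues. They made up 1.26% of labelled nuclei in cecum (exact 95% interval 1.01 to 1.54) and 0.685% in tumor (0.521 to 0.885). Of nuclei with a CD4 helper or Treg label they made up 2.93% of 3072 in cecum (2.36 to 3.59) and 1.89% of 3063 in tumor (1.44 to 2.44). The share was thus lower in the tumor library with either denominator. The intervals overlapped for CD4 labels and did not for all labelled nuclei. They cover counting error only, so with 1 library per tissue they do not show a difference between tissues. With nuclei above 3 times the median left out, the shares of all nuclei were 1.26% and 0.717%.

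The marker genes of the label were open in these cells. The Gata3 window held 353 FPM in cecum and 317 FPM in tumor Th2 cells, above every other label, of which the highest were IL10- Treg in cecum (233 FPM) and PD1+ CD4 in tumor (210 FPM). The Il13 window held 87.9 and 82.0 FPM, and the highest other labels were CD8aa in cecum (34.3 FPM) and PD1+ CD4 in tumor (51.9 FPM). The Il4 window held 77.4 and 47.8 FPM, and the next labels were IL10- Treg in cecum (15.7 FPM) and Innate-like T#2 in tumor (22.2 FPM). Summed over Gata3, Il4 and Il13, Th2 cells reached 519 and 446 FPM, while the other labels ranged from 159 to 278 FPM in cecum and from 167 to 284 FPM in tumor. The label and its markers therefore pointed the same way in both libraries.

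Markers of other cell types were summed in the same way. The sum over T cell genes (Cd3e, Cd3d, Cd3g, Cd247, Lck and Cd4) was 812 FPM in cecum and 827 FPM in tumor, within the range of the other labels. A list for group 2 innate lymphoid cells (Arg1, Hs3st1, Il17rb, Klrg1, Rora and Id2) summed to 1268 FPM in cecum, above the 361 to 1146 FPM of all other labels, and to 1141 FPM in tumor, where IL10- Treg was higher (1163 FPM). Rora, a long gene, gave 997 and 909 FPM of that sum, and Th17 and IL10- Treg cells had it open to a similar level (947 FPM in cecum Th17 and 939 FPM in tumor IL10- Treg). Against the other CD4 types without PD1+ CD4, the log2 ratios were 2.17 and 2.47 for Il17rb and 2.05 and 0.80 for Klrg1. They were 0.79 and 0.45 for Rora and -0.11 and -0.33 for Id2. Arg1 (1.12 and 1.59) and Hs3st1 (2.54 and 5.40) were below the count minimum. The mast cell and basophil list summed to 98.5 FPM in cecum (other labels 23.9 to 234 FPM, 4 of them above Th2 cells). In tumor it summed to 107 FPM (33.7 to 225 FPM, 2 above). Fcer1a (0 and 1 fragments) and Mcpt8 (0 and 0 fragments) were at or near 0. The other CD4 types without PD1+ CD4 had few there too (2 and 4, 3 and 1). Over those cells the log2 ratios were 1.59 and 1.53 for Gata2 and 2.61 and 1.24 for Kit, both called higher. They were 1.77 and 0.27 for Ms4a2 and -0.28 and 0.21 for Cpa3, neither called. B cell genes summed to 146 and 141 FPM, myeloid genes to 93.2 and 72.9 FPM and epithelial genes to 169 and 146 FPM, each within or below the range of the other labels. The part of such cells in the results was not tested.

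**Figure D1:**
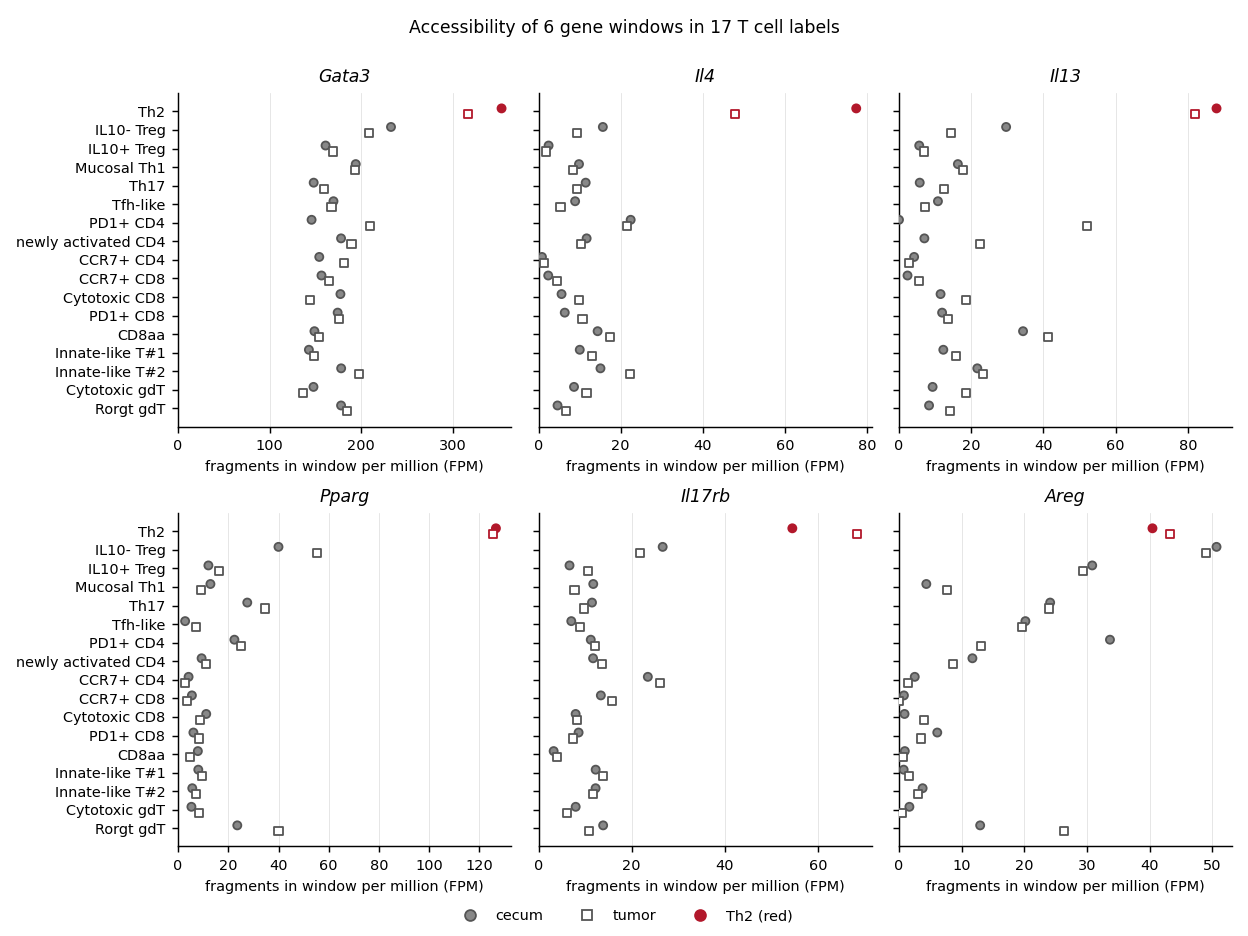
Accessibility (FPM, linear axis from 0) of 6 gene windows in each label, cecum as filled circles and tumor as open squares, with Th2 in red. Th2 cells were highest for Gata3, Il4, Il13, Pparg and Il17rb in both libraries, whereas for Areg IL10- Treg cells were higher (50.7 and 48.9 FPM against 40.4 and 43.3 FPM). The cecum PD1+ CD4 label held 14 nuclei.

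Within the label, the cytokine windows were seen in part of the nuclei. At least 1 fragment in the Il4, Il5 or Il13 window was present in 49 of 90 cecum nuclei (54.4%) and 34 of 58 tumor nuclei (58.6%), against 12.9% and 25.1% of the other CD4 types and 27.8% and 20.8% of IL10- Treg cells. At least 2 of these windows held a fragment in 23 cecum and 9 tumor nuclei, and both Il4 and Il13 did in 16 and 5. Nuclei with such a fragment were deeper (median 7263 fragments against 2479 in cecum, 9603.5 against 4260 in tumor), so a nucleus without one cannot be read as closed. After thinning each nucleus to 2000 fragments, which left 68 cecum and 49 tumor Th2 nuclei and dropped 22 and 9, the Gata3 window held a fragment in 42.6% of cecum Th2 nuclei (30.7 to 55.2) against 29.8% of other CD4 types and 37.0% of IL10- Treg, which lies inside the Th2 interval. In tumor it held one in 61.2% of Th2 nuclei (46.2 to 74.8) against 30.4% and 32.7%. The Il13 window held one in 19.1% of cecum Th2 nuclei (10.6 to 30.5) against 2.44% of other CD4 types, and in 12.2% of tumor Th2 nuclei (4.63 to 24.8) against 6.57%. The tumor interval for Il13 thus included the share of the other CD4 types, and at 1000 fragments per nucleus the tumor order turned, with 1 of 55 Th2 nuclei (1.82%) against 2.95% (10.4% against 1.19% in cecum). Without PD1+ CD4 the tumor shares of the other CD4 types were 4.33% at 2000 fragments, just under the Th2 interval, and 1.27% at 1000, inside it (0.046 to 9.72). For Il13 the IL10- Treg shares were 5.38% and 2.45%. The Il4 window held one in 8.82% of cecum Th2 nuclei (3.31 to 18.2) against 2.002% of other CD4 types and 1.90% of IL10- Treg. In tumor it held one in 16.3% (7.32 to 29.7) against 2.88% and 2.45%. The Il4 share of Th2 nuclei was thus higher in tumor than in cecum, with overlapping intervals, but only at this depth. At 1000 fragments per nucleus the order turned (7.79% in cecum and 5.45% in tumor), as it did without thinning (30.0% and 22.4%). The Il5 window held one in 10.3% of cecum Th2 nuclei (4.24 to 20.1) against 1.65% of other CD4 types and 3.16% of IL10- Treg, and in 1 of 49 tumor Th2 nuclei (2.04%) against 1.14% and 2.12%. For Pparg the shares were 23.5% (14.1 to 35.4) against 1.65% of other CD4 types and 6.33% of IL10- Treg in cecum and 18.4% (8.76 to 32.0) against 2.55% and 8.50% in tumor. Before thinning the Th2 shares were 68.9% and 87.9% for Gata3, 37.8% and 37.9% for Il13, and 42.2% and 58.6% for Pparg.

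Across the 14976 gene windows with at least 50 fragments over both sides in each library, 93 were higher in Th2 cells than in the other CD4 types (0.621%) and 186 were lower (1.24%). Over all tested windows the median log2 ratio was -0.04 in cecum and -0.01 in tumor. Th2 cells were the highest of all labels for 71 of the 93 windows in cecum, 70 in tumor and 63 in both. These windows were chosen for a high Th2 level against the pooled CD4 labels, so this rank is partly set by the choice. The label next highest, or higher, was IL10- Treg for 22 windows in cecum and 12 in tumor, and Rorgt gdT, a gamma-delta T cell label, for 17 and 23. Against IL10- Treg, 55 of 12942 windows were higher (0.425%) and 166 were lower (1.28%), with medians of -0.02 and 0.01. The expected count of Th2 fragments was small for many windows: among those where at least 10 were expected in each library, 20 were higher and 55 lower than in the other CD4 types. The minimum counts Th2 fragments as well, and with 50 fragments of the compared cells alone 87 of 14849 windows were higher and 185 lower than in the other CD4 types, and 37 of 12528 higher and 158 lower than in IL10- Treg. Without PD1+ CD4 in the pool, 103 of 14586 were higher and 156 lower.

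**Figure D2:**
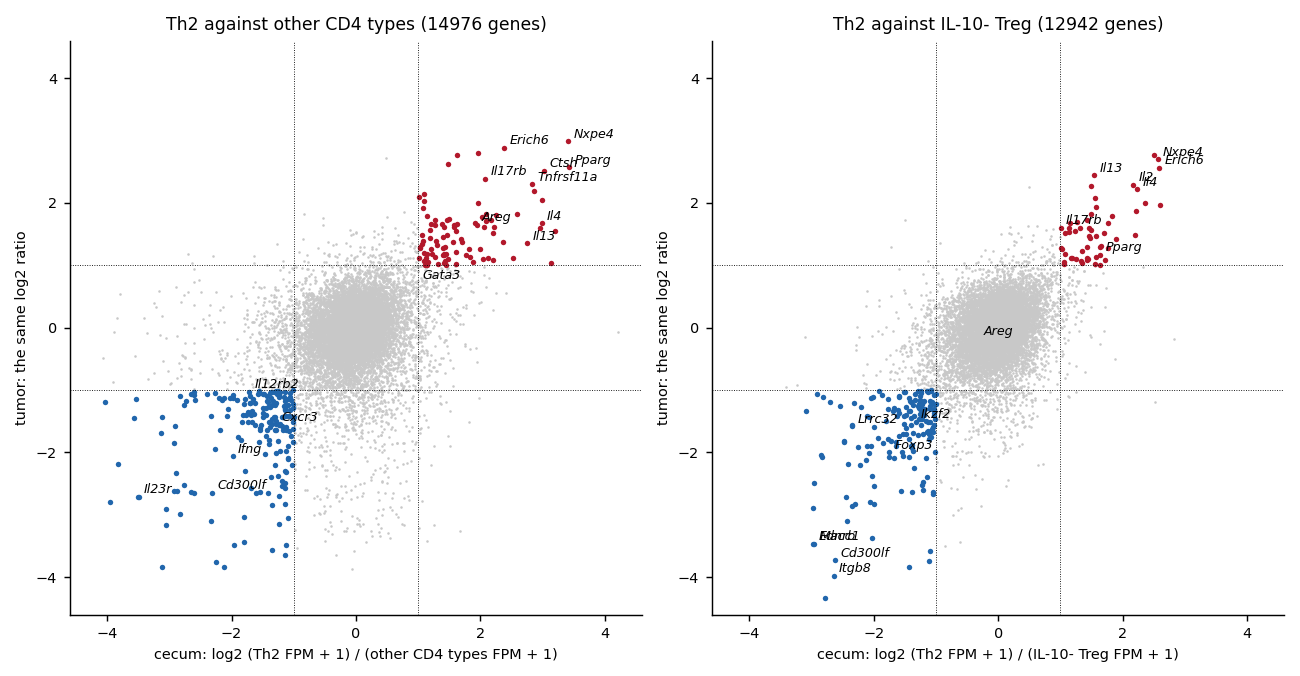
Each point is 1 gene window, with its log2 ratio in cecum on the horizontal and in tumor on the vertical axis, for Th2 over other CD4 types (14976 windows) and Th2 over IL10- Treg (12942 windows). Red points were higher past 2-fold in both libraries (93 and 55 windows) and blue points lower (186 and 166).

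The type 2 cytokine cluster on chromosome 11 had the largest share of members called of the lists described, with 5 of 6 members higher than in the other CD4 types and none lower (median log2 1.84 in cecum and 1.49 in tumor). Of all tested windows, 0.621% were higher and 1.24% lower. Il4 (chr11:53612460-53618665, mm10), the cytokine that drives the Th2 fate and class switching to IgE, had 44 fragments in 27 cecum nuclei and 21 in 13 tumor nuclei. Its log2 ratio was 3.12 (2.56 to 3.65) in cecum and 1.74 (1.02 to 2.39) in tumor, where the other CD4 types held 8.91 and 14.3 FPM. PD1+ CD4 held 133 of the 201 compared fragments in tumor, and without that label the compared cells held 8.79 and 8.58 FPM and the ratio was 3.14 (2.58 to 3.68) and 2.48 (1.70 to 3.20). Without nuclei above 3 times the median the log2(FPM + 1) difference in cecum went from 2.98 to 2.51. Il13 (chr11:53631323-53634702), which acts on epithelium, goblet cells and smooth muscle, had 50 fragments in 34 nuclei and 36 in 22. Its log2 ratio was 2.85 (2.34 to 3.33) in cecum and 1.38 (0.84 to 1.87) in tumor, against 12.2 and 31.6 FPM in the other CD4 types. PD1+ CD4 held 319 of the 444 compared fragments in tumor (51.9 FPM), and without it the ratio was 2.83 (2.33 to 3.32) and 2.38 (1.80 to 2.92), against 12.3 and 15.8 FPM. Il5 (chr11:53720794-53725103), the growth factor of eosinophils, was thinner, with 17 and 13 fragments, a level of 29.9 and 29.6 FPM, and log2 ratios of 2.22 (1.36 to 3.01) and 1.73 (0.78 to 2.55). Rorgt gdT cells lay just below Th2 cells at this window (28.7 and 24.9 FPM).

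The neighbours of the cytokine genes in this cluster differed among themselves. The Rad50 window, a DNA repair gene whose body holds the cluster's control region, had 165 and 219 FPM in Th2 cells against 70.9 and 90.2 FPM in the other CD4 types. The log2 ratio was 1.22 (0.89 to 1.53) and 1.28 (0.96 to 1.58), or 1.66 in tumor without PD1+ CD4, but within 1 kb of the Rad50 start the difference on the log2(FPM + 1) scale was 0.09 and 0.62. Kif3a, a kinesin motor gene next to Il4, had 125 and 153 FPM against 39.95 and 47.7 FPM, with log2 ratios of 1.64 (1.26 to 2.01) and 1.68 (1.29 to 2.04). Within 1 kb of its own start the Kif3a difference was -0.49 in cecum and 0.62 in tumor. Both differences were thus smaller at the gene start than over the whole window. Irf1, an interferon response gene at the far end of the cluster, had log2 ratios of 0.07 and 0.33.

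Tiles of 500 bp placed these differences inside the cluster. Of 398 tiles over chr11:53545701-53745103, 25 had at least 20 fragments over both sides in each library, and 8 of these were higher in Th2 cells and none lower, where 1.43% of all tested tiles were higher and 8.23% lower. This minimum counts Th2 fragments as well. With 20 fragments of the compared cells alone in each library, an alternative chosen after seeing the data, 3 of 19 tiles were higher and none lower, where 1.09% and 8.52% of all such tiles were. The tile with most Th2 fragments lay between Kif3a and Il4 (chr11:53605501-53606000, intergenic, 11.3 kb from the nearer of the annotated Il4 starts, and 12.9 kb from the outer start used in the plot of the cluster). It held 42.2 FPM in cecum and 43.3 FPM in tumor Th2 cells against 2.10 and 3.41 FPM in the other CD4 types (log2 4.33, 3.42 to 5.24, and 3.66, 2.82 to 4.46), and the next label was IL10- Treg with 7.998 and 8.78 FPM. This tile falls in the flank of the Kif3a window and outside that of Il4. A second intergenic pair of tiles, with 13 and 14 compared fragments in cecum, lay between Il4 and Il13 (chr11:53626501-53627500), where the left tile held 33.4 and 25.1 FPM against 1.302 and 3.13 FPM (log2 4.68, 3.59 to 5.82, and 3.002, 1.90 to 3.98). In Rad50 the tile chr11:53663001-53663500 held 24.6 and 29.6 FPM against 6.71 and 10.6 FPM (log2 1.88 and 1.48). Near the Il5 start, the tile chr11:53719501-53720000 held 19.3 and 13.7 FPM against 3.70 and 5.55 FPM, while the Rorgt gdT cells held more than Th2 cells in cecum (24.1 FPM). At the tiles near Il4 and Il13, in contrast, no other label exceeded 9.54 FPM.

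**Figure D3:**
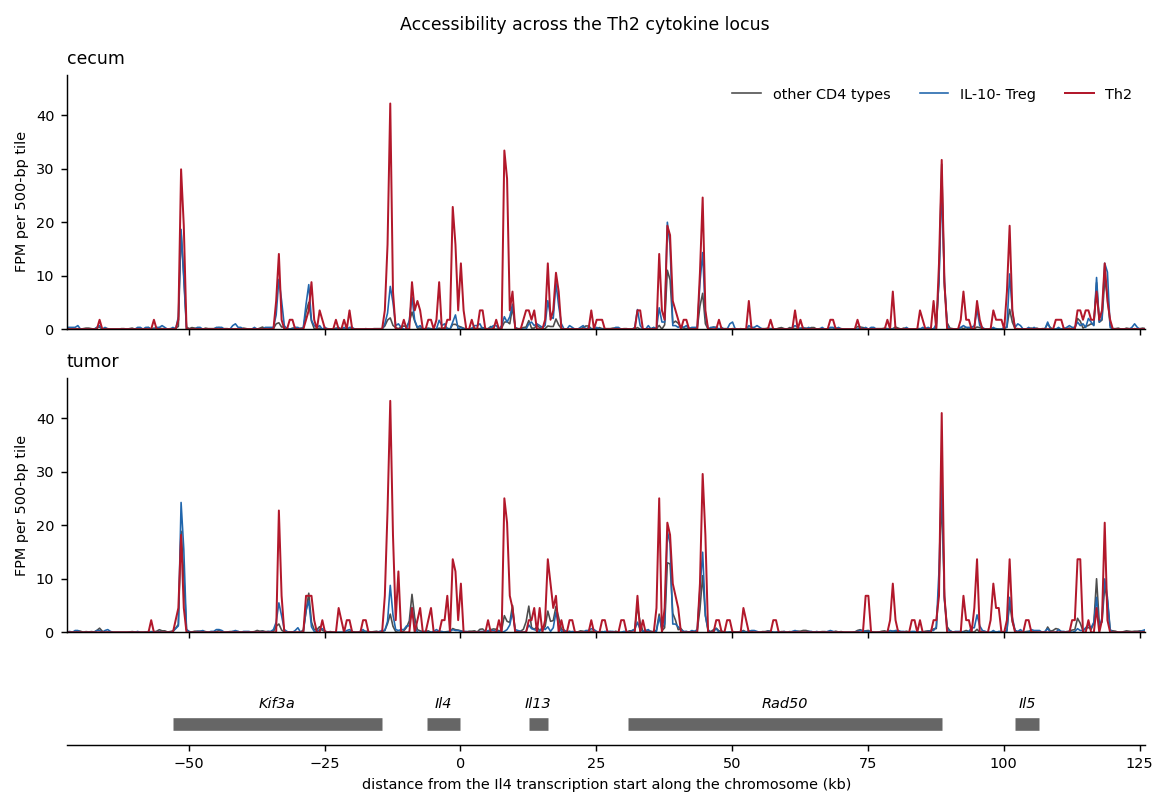
FPM in 500-bp tiles across the cytokine cluster, plotted by distance in kb from the Il4 start, for Th2, other CD4 types and IL10- Treg in cecum and in tumor, with gene bodies as bars. The tile between Kif3a and Il4 rises to 42.2 FPM in cecum and 43.3 FPM in tumor Th2 cells and to no more than 8.78 FPM in IL10- Treg.

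The promoters of 3 cytokine and effector genes are shown because they differed in fragments and in the presence of a GATA site. The 250 bases before the RefSeq start (GRCm38.p6) are printed in the gene's own direction, with matches on either strand to 1 of 4 GATA motifs in capitals (AGATAA, its close form AGATAG, and those with T at the left end, TGATAA and likewise TGATAG). Il4 lay at chr11:53618666-53618915 (minus strand), Il13 at chr11:53634703-53634952 (minus) and Areg at chr5:91139349-91139598 (plus).
Il4: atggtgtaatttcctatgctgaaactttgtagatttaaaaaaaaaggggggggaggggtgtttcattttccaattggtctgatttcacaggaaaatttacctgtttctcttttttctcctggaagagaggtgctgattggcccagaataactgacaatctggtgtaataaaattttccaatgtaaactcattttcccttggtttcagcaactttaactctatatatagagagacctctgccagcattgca
Il13: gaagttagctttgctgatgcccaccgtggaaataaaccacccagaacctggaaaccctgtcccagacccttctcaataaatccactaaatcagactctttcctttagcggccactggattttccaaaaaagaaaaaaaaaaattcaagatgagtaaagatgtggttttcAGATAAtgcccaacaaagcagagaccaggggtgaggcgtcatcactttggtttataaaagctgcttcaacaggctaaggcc
Areg: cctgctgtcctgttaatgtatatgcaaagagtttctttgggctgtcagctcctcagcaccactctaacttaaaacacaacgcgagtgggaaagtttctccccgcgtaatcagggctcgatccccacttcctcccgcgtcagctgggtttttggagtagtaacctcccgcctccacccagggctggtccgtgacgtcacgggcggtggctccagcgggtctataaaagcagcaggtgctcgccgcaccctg
The Il4 stretch held no match, the Il13 stretch 1 and the Areg stretch none. Over these 250 bases and the 50 after the start, Il4 had 7 Th2 fragments in cecum and 4 in tumor against 2 and 2 in the other CD4 types, although those cells gave many more fragments (log2 5.94, 3.55 to 9.24, and 6.002, 3.20 to 9.47). The Il13 promoter had 7 and 6 Th2 fragments against 6 and 50 (log2 4.36, 2.56 to 6.21, and 1.94, 0.43 to 3.17). The Areg promoter had 20 and 13 against 65 and 116 (log2 2.43, 1.63 to 3.18, and 1.84, 0.89 to 2.67). A match was found in 8718 of 32851 mouse promoters (26.5%), in 2742 of 15203 of tested genes (18.04%) and in 23 of 110 of genes higher in Th2 cells (20.9%).

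Among transcription factors of the type 2 program, 1 of 12 was higher past 2-fold than in the other CD4 types, beside 0.621% of all windows. The medians were 0.36 in cecum and 0.29 in tumor, and 9 of the 12 lay above 0 in both. The member past 2-fold was Pparg (chr6:115360879-115490404), a nuclear receptor of fatty acids that tissue Th2 cells are known to express. It held 127 and 125 FPM, with 72 fragments in 38 nuclei and 55 in 34, against 10.9 and 20.3 FPM (log2 3.54, 3.09 to 3.98, and 2.63, 2.18 to 3.05). IL10- Treg cells came next with 39.99 and 55.3 FPM, and Th2 cells exceeded them too (log2 1.66, 1.22 to 2.10, and 1.18, 0.74 to 1.60). A tile inside Pparg (chr6:115440501-115441000) held 12.3 and 22.8 FPM against 1.60 and 1.99 FPM (7 and 10 fragments against 16 and 28; log2 2.94 and 3.52). In cecum this tile met the minimum of 20 only through its Th2 fragments, so its values are a description. With 20 compared fragments alone, 0 of 2 tiles at Pparg were higher.

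Gata3 itself, the master regulator (chr2:9857078-9887953), stayed below the 2-fold line, and the other CD4 types had it open at 179 and 193 FPM. Its log2 ratio was 0.98 (0.76 to 1.19) in cecum and 0.72 (0.46 to 0.96) in tumor, and 0.60 in both libraries against IL10- Treg (0.37 to 0.83 and 0.34 to 0.86). Around Gata3, of 92 tiles tested within 1000 kb on either side, 13 were higher and 2 lower, beside the 1.43% and 8.23% of all tiles, and 10 and 2 of 86 with 20 compared fragments alone. The tile chr2:9368001-9368500, intergenic and 510 kb from the Gata3 start, held 45.7 FPM in cecum and 47.8 FPM in tumor Th2 cells. The other CD4 types held 1.201 FPM there in cecum and 10.3 FPM in tumor (12 and 145 fragments; log2 5.25, 4.21 to 6.37, and 2.21, 1.48 to 2.88), and IL10- Treg was the next label with 25.3 and 31.3 FPM. In cecum this tile met the minimum only through its 26 Th2 fragments, so its values are a description. Only distance links these tiles to Gata3.

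The other factors moved little. Irf4, which T cells induce on activation, had log2 ratios of 0.73 and 0.55, Stat6, the signal carrier of the IL-4 receptor, 0.38 and 0.17, and Bhlhe40 0.35 and 0.11. Bhlhe41 went the other way, with 2 Th2 fragments in cecum and 7 in tumor. Without PD1+ CD4 its ratio to the other CD4 types was -2.33 (-5.39 to -0.46) in cecum but 0.15 (-1.20 to 1.24) in tumor. Bhlhe41 was called lower against IL10- Treg (log2 -3.41, -6.47 to -1.52, and -1.39, -2.72 to -0.33). IL-4 and IL-13 signalling as a list had none of 9 members past 2-fold in both libraries (medians 0.28 and 0.06). Cish, a feedback inhibitor of cytokine signalling, held 222 and 185 FPM against 103 and 143 FPM (log2 1.11, 0.83 to 1.38, and 0.37, 0.03 to 0.69).

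Of 11 type 2 receptors tested, 2 were higher and none lower, beside 0.621% and 1.24% of all windows (medians 0.62 and 0.42). Il17rb, the receptor of IL-25, held 54.5 and 68.3 FPM against 12.1 and 12.3 FPM (log2 2.17, 1.55 to 2.75, and 2.47, 1.86 to 3.04), and against IL10- Treg its log2 ratio was 1.03 (0.38 to 1.65) and 1.64 (1.02 to 2.23). Its window overlaps those of Chdh and Actr8, so fragments there are shared between the genes. Cysltr1, the receptor of cysteinyl leukotrienes, had 22 and 14 fragments and 38.7 and 31.9 FPM against 7.31 and 8.39 FPM (log2 2.40, 1.64 to 3.11, and 1.93, 1.01 to 2.73). Nearest to Th2 cells at Cysltr1 were Rorgt gdT (22.7 and 18.3 FPM) and Th17, a label of the compared pool (20.7 and 20.9 FPM). These receptors were thus open in both libraries.

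Il1rl1, which encodes the IL-33 receptor ST2, was open but not set apart from Treg. Th2 cells held 120 FPM in cecum and 169 FPM in tumor, IL10- Treg cells 124 and 133 FPM, and the other CD4 types 61.9 and 93.8 FPM. The log2 ratio was 0.95 (0.57 to 1.31) and 0.85 (0.49 to 1.18) against the other CD4 types, and -0.05 (-0.45 to 0.32) and 0.34 (-0.03 to 0.68) against IL10- Treg. Its window overlaps that of Il18r1. Crlf2, a chain of the TSLP receptor, differed less, with 420 and 412 FPM in Th2 cells against 327 and 302 FPM (log2 0.36 and 0.45). The chemokine receptor Ccr8 was called in neither direction, with 59.8 and 59.2 FPM against 26.5 FPM in cecum and 50.3 FPM in tumor (log2 1.17 and 0.24, or 0.92 in tumor without PD1+ CD4), and IL10- Treg cells were above Th2 cells at 79.98 and 68.6 FPM. Ptgdr2, the prostaglandin D2 receptor often used to sort Th2 cells, had log2 ratios of -0.77 and 0.52.

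Among 11 effector genes of type 2 cells, 4 were higher and none lower, beside 0.621% and 1.24% of all windows (medians 0.91 and 0.06). Areg, which encodes the epithelial growth factor amphiregulin (chr5:91139599-91148432), held 40.4 and 43.3 FPM against 9.81 and 13.1 FPM (log2 2.04, 1.32 to 2.71, and 1.73, 0.96 to 2.41). IL10- Treg cells had it at 50.7 and 48.9 FPM, so that the ratio to them was -0.33 (-1.03 to 0.31) and -0.18 (-0.93 to 0.49). Il9, a growth factor of mast cells, held 70.3 and 70.6 FPM against 33.1 and 24.7 FPM (log2 1.09, 0.57 to 1.56, and 1.52, 0.94 to 2.05), though within 1 kb of its start the differences were -0.26 and -0.10. Its difference was thus not seen near the start, and its window overlaps that of Slc25a48.

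Il3 and Calca had more fragments in cecum than in tumor. Il3, a growth factor of basophils, had 24 fragments in cecum and 7 in tumor (log2 3.51, 2.70 to 4.29, and 1.74, 0.37 to 2.86). Calca, which encodes the neuropeptide CGRP, had 27 and 10 fragments, a level of 47.5 and 22.8 FPM, and log2 ratios of 3.19 (2.46 to 3.89) and 1.72 (0.62 to 2.66). Il6 had 13 and 15 fragments and was below the count minimum (log2 3.13 and 3.32). Il10 was lower in cecum, with 10 fragments (log2 -1.52, -2.58 to -0.62), and had 16 in tumor (log2 -0.40, -1.22 to 0.31). Over the cytokine cluster, factors, receptors and effectors together, 12 of 40 tested genes were higher and none lower, where 0.621% of all windows were higher, and 29 lay above 0 in both libraries (medians 0.67 and 0.41). The count was 2 of 24 within 1 kb of the gene start, 3 of 26 with at least 200 fragments and 3 of 26 with at least 10 expected. It was 11 of 39 with 50 compared fragments alone, where Il3 was not tested, and 12 of 37 without PD1+ CD4.

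**Figure D4:**
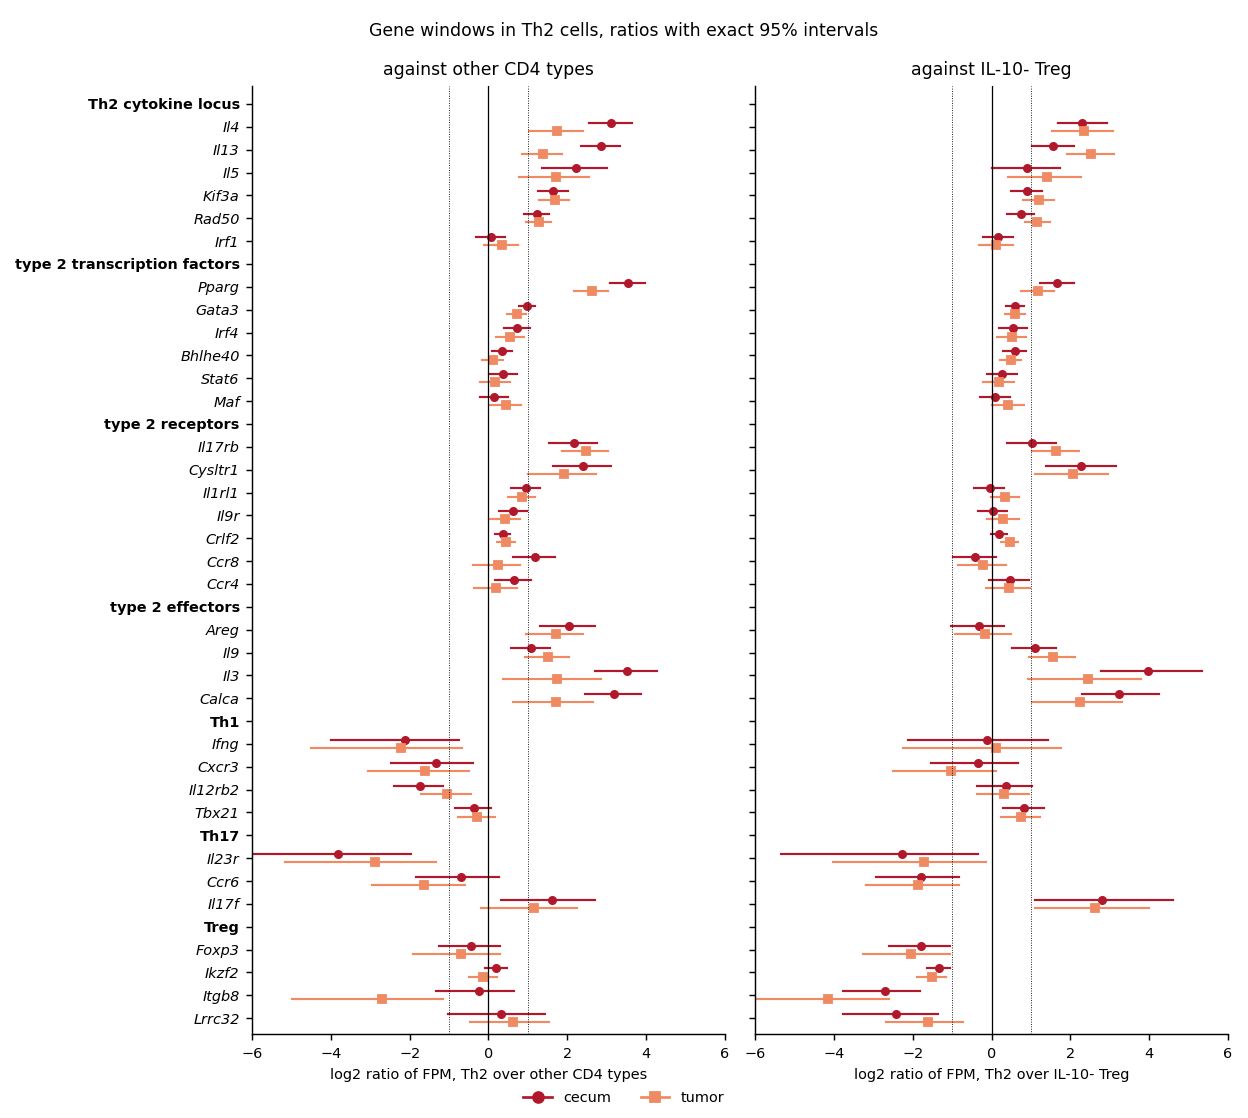
Log2 ratio of Th2 over other CD4 types (left) and over IL10- Treg (right) for members of the gene lists, with exact 95% intervals that are cut where they leave the axis, cecum as circles and tumor as squares. Against the other CD4 types Il4, Il13, Pparg, Il17rb and Areg lie above 1 in both libraries, whereas Ifng (-2.13 and -2.22) and Il23r (-3.83 and -2.88) lie below -1.

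Of 12 Th1 genes none was higher and 3 were lower than in the other CD4 types, where 1.24% of all windows were lower (medians -0.15 and -0.23). Ifng, the defining Th1 cytokine, had 4 fragments in cecum and 3 in tumor, 7.03 and 6.83 FPM against 30.7 and 31.8 FPM (log2 -2.13, -4.01 to -0.76, and -2.22, -4.50 to -0.66). Cxcr3, a chemokine receptor of Th1 cells, had 9 and 6 fragments (log2 -1.33, -2.47 to -0.39, and -1.62, -3.07 to -0.48). Il12rb2, a chain of the IL-12 receptor, had 40.4 and 50.1 FPM against 135 and 104 FPM (log2 -1.74, -2.41 to -1.15, and -1.05, -1.73 to -0.44), but without PD1+ CD4 in the pool the tumor ratio was -0.91 and the gene was not called. Tbx21, the Th1 factor T-bet, differed less (log2 -0.38 and -0.28), and without PD1+ CD4 its tumor ratio was 0.25 (-0.25 to 0.72).

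Of 8 Th17 genes 1 was higher and 1 lower, beside 0.621% and 1.24% of all windows (medians 0.37 and 0.20). Il23r, the IL-23 receptor, had 2 and 3 fragments, 3.52 and 6.83 FPM against 50.1 and 50.4 FPM (log2 -3.83, -6.88 to -1.97, and -2.88, -5.16 to -1.33). The gene called higher, Il17f, rested on 8 and 7 fragments (log2 1.61 and 1.17), and within 1 kb of its start it was -0.38 in tumor. It was not tested with 50 compared fragments alone, and without PD1+ CD4 its tumor ratio was 0.75. No member of the Treg, Tfh, naive, activation or residency lists was past 2-fold in both libraries against the other CD4 types, and 6 of 8 naive genes lay below 0 in both (medians -0.18 and -0.25). Foxp3 had log2 ratios of -0.44 (-1.26 to 0.28) and -0.70 (-1.92 to 0.30), and after thinning 2.94% of cecum and 4.08% of tumor Th2 nuclei held a fragment there, against 6.70% and 5.90% of the other CD4 types. At 1000 fragments per nucleus the cecum order turned (7.79% against 3.26%), and the tumor shares were 3.64% and 3.68%. Lypd6b (3 and 1 fragments) and Cd300lf, an inhibitory receptor of myeloid cells (3 and 1 fragments), were also among the lowest (log2 -2.53 and -3.58, -2.52 and -3.10). Most of the 15 lowest windows had 0 Th2 fragments in both libraries. Among them Afp, the alpha-fetoprotein gene, had 145 fragments in cecum and 84 in tumor in the other CD4 types. With its Th2 count of 0 set to 3 fragments the log2 ratio was -1.46 and 0.19, values fixed by that setting and not upper limits. Atp8b5, a lipid flippase gene, had 77 and 188 (-0.55 and -0.97 with the same 3 fragments).

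Outside the lists, the highest windows held genes that are not usual Th2 markers. Nxpe4 (chr9:48162004-48400025) held 89.7 and 109 FPM, with 51 fragments in 32 nuclei and 48 in 26. The other CD4 types held 7.51 and 12.9 FPM (log2 3.58, 3.04 to 4.11, and 3.08, 2.59 to 3.54), and no other label exceeded 21.3 FPM in cecum (Cytotoxic gdT) or 19.6 FPM in tumor. Its difference was also present against IL10- Treg (log2 2.65, 2.03 to 3.27, and 2.77, 2.24 to 3.29), though within 1 kb of the start it was -0.41 in cecum, and a tile 41.5 kb from its start (chr9:48403501-48404000) held 22.9 and 22.8 FPM against 1.60 and 4.48 FPM (13 and 10 fragments against 16 and 63). In cecum that tile met the minimum of 20 only through its Th2 fragments, so its values are a description. With 20 compared fragments alone, 0 of 1 tile at Nxpe4 was higher. The annotated promoter of Nxpe4 had 0 fragments in Th2 cells and in the other CD4 types of both libraries, and the window overlaps that of Nxpe2.

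Tnfrsf11a, which encodes RANK, the receptor of the osteoclast factor RANKL (chr1:105780673-105849444), held 63.3 and 70.6 FPM against 8.01 and 13.6 FPM (log2 2.98, 2.37 to 3.57, and 2.38, 1.78 to 2.93). In cecum 9 of its 36 fragments came from 1 nucleus. Erich6 held 49.2 and 54.7 FPM against 8.61 and 6.54 FPM (log2 2.52 and 3.06), and Rorgt gdT cells shared part of it (29.1 and 28.2 FPM). Ctsh, the protease cathepsin H, held 61.5 and 54.7 FPM against 6.71 and 8.74 FPM in the other CD4 types (log2 3.20, 2.56 to 3.81, and 2.64, 1.95 to 3.28). IL10- Treg cells had Ctsh at 59.0 and 51.2 FPM (log2 Th2 over IL10- Treg 0.06, -0.51 to 0.59, and 0.10, -0.57 to 0.70). For Ctsh the intervals against IL10- Treg thus included 0.

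Long genes were also among those called. Zfp536, a zinc finger gene with a span of 456 kb, held 156 and 114 FPM against 33.8 and 33.6 FPM (log2 2.21, 1.86 to 2.55, and 1.76, 1.31 to 2.19), but within 1 kb of its start the differences were -0.26 and -0.19. Pard3, a polarity gene, held 135 and 150 FPM against 44.0 and 50.6 FPM (log2 1.62 and 1.57), and Rorgt gdT cells came close (115 and 102 FPM). Efcc1 held 86.1 and 54.7 FPM against 13.5 and 14.8 FPM (log2 2.67 and 1.89), but within 1 kb of its start the differences were 1.69 and -1.05. Mras, a small GTPase, held 35.2 and 54.7 FPM against 8.31 and 6.97 FPM (log2 2.08 and 2.97). Car8 had 21 and 10 fragments against 42 and 59 in the other CD4 types (log2 3.13 and 2.44), so it met the minimum of 50 in cecum only through Th2 cells, and Pxdc1 27 and 27 (log2 3.22 and 2.12). Counting only fragments within 1 kb of the gene start, 22 windows were higher and 85 lower than in the other CD4 types.

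Against IL10- Treg, 5 of 33 type 2 genes were higher, namely Il4, Il13, Il17rb, Il9 and Pparg, and Bhlhe41 was lower, where 0.425% and 1.28% of all windows were. Higher were 0 of 20 within 1 kb of the gene start, 0 of 24 with at least 200 fragments, 2 of 28 with at least 10 expected, and 4 of 31 with 50 fragments of IL10- Treg alone, where Il4 was not tested (47 fragments in cecum). Il4 held 77.4 and 47.8 FPM against 15.7 and 9.47 FPM (log2 2.30, 1.68 to 2.93, and 2.34, 1.54 to 3.09). Il13 held 87.9 and 82.0 FPM against 29.7 and 14.3 FPM (log2 1.57, 1.04 to 2.08, and 2.52, 1.91 to 3.10). Il2, the T cell growth factor that Treg cells are known not to make, held 84.4 and 63.8 FPM against 17.995 and 12.2 FPM (log2 2.23, 1.64 to 2.82, and 2.38, 1.70 to 3.03). Beside it, an intergenic tile 31.0 kb from the Il2 start (chr3:37157001-37157500) held 35.2 and 38.7 FPM against 2.33 and 1.72 FPM (20 and 17 fragments against 7 and 10). Il1r1, the IL-1 receptor, was higher over the window (log2 1.5003 and 1.51) but -0.43 in tumor within 1 kb of its start, and Rorgt gdT cells held 279 and 275 FPM against 65.0 and 77.5 FPM in Th2 cells. Outside the lists, Plxdc2, a plexin domain gene, held 59.8 and 47.8 FPM against 9.66 and 6.201 FPM (log2 2.63, 1.87 to 3.40, and 2.95, 2.10 to 3.76). With 29 and 36 IL10- Treg fragments it met the minimum only through Th2 cells, as Nxpe4 did in cecum with 43. Nnmt, an enzyme that methylates nicotinamide, held 89.7 and 75.2 FPM against 16.7 and 18.1 FPM (log2 2.43 and 2.06), and the CCR7+ CD4 cells were near Th2 cells at 81.3 and 78.1 FPM.

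Of 10 Treg genes, 4 were lower in Th2 cells than in IL10- Treg and none higher, beside 1.28% and 0.425% of all windows (medians -0.51 and -0.67). Foxp3, the factor that defines Treg, held 28.1 and 18.2 FPM against 97.3 and 76.0 FPM (log2 -1.79, -2.62 to -1.07, and -2.06, -3.28 to -1.07). Ikzf2, the Treg factor Helios, held 188 and 153 FPM against 474 and 436 FPM (log2 -1.33, -1.63 to -1.05, and -1.51, -1.89 to -1.16), but within 1 kb of the start the differences were 0.076 and 0.030. Itgb8, an integrin chain that activates TGF-beta, held 17.6 and 6.83 FPM against 115 and 123 FPM (log2 -2.71, -3.79 to -1.82, and -4.17, -6.45 to -2.61). Lrrc32, which presents latent TGF-beta, had log2 ratios of -2.44 and -1.63. Beyond the list, Prss8, a membrane protease gene, had 4 and 5 Th2 fragments, 7.03 and 11.4 FPM against 61.3 and 68.4 FPM (log2 -3.12, -5.02 to -1.74, and -2.59, -4.22 to -1.35). The other members of the list were called in neither direction, among them the inhibitory receptor Ctla4 (log2 -0.41, -0.88 to 0.04, and 0.11, -0.36 to 0.54) and Il2ra, a chain of the IL-2 receptor (0.02 and 0.10).

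Distal chromatin was read in 500-bp tiles more than 2 kb from any gene start. Of 48492 distal tiles with at least 20 fragments over both sides in each library, 1025 were higher in Th2 cells than in the other CD4 types (2.11%) and 5760 lower (11.9%). Against IL10- Treg 382 of 16590 were higher (2.3%) and 1701 lower (10.3%). With 20 fragments of the compared cells alone, 733 of 46226 tiles were higher than in the other CD4 types (1.59%), and 169 of 13855 higher than in IL10- Treg (1.22%). Most calls in both directions rested on tiles where few Th2 fragments were to be expected: with at least 5 expected in each library, 28 of 5599 tiles were higher (0.500%) and 313 lower (5.59%) than in the other CD4 types. Without nuclei above 3 times the median, fewer tiles could be tested, and 642 of 30939 were higher (2.08%) and 3714 lower (12.0%). Of the 1025 higher tiles, 563 (54.9%) lay inside the span of a coding gene, against 58.9% of all tested distal tiles, and the median distance to the nearest coding start was 15.9 kb against 13.9 kb. Of them 40 (3.90%) had 1 of the 93 higher genes as nearest start, against 0.344% of all tested distal tiles, and tiles inside a gene's window share its fragments. Genes and tiles were called from the same Th2 fragments, so this share is partly set by the choice. Gata3 was the gene nearest to the most higher tiles (11 of 56 tested), followed by Rtkn2 (9 of 28). These positions describe all 1025 tiles and were not taken for the 733 with 20 compared fragments alone.

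To keep the choice of tiles apart from their description, tiles chosen in one library were read in the other. Of 442 distal tiles past 4-fold against the other CD4 types in cecum, 399 had at least 20 fragments in tumor, and 238 of these (59.6%) were past 2-fold there, against 9.07% of all tiles, with a median log2 ratio of 1.33 against -0.23. Of 600 chosen in tumor, 326 could be read in cecum and 210 (64.4%) were past 2-fold, against 8.33% of all. Against IL10- Treg the shares were 79.1% of 86 read in tumor and 77.3% of 110 read in cecum, against 7.72% and 6.15%. A tile could be read only with 20 fragments, of which the Th2 ones were a part. Reading instead every tile with 20 fragments of the compared cells alone, a choice made after seeing the data, 56.6% of 369 tiles in tumor and 55.2% of 250 in cecum were past 2-fold against the other CD4 types, where 8.64% and 6.69% of all tiles were. Against IL10- Treg 78.0% of 59 and 64.6% of 48 were, where 6.22% and 3.31% of all tiles were.

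Tiles were named for the size of their ratios, and of these 15 only the 1 between Kif3a and Il4 had 20 fragments of the compared cells alone in both libraries. The others reached the minimum with the help of Th2 fragments, so their ratios are a description. A tile 9.22 kb from the start of Fam220a (chr5:143539001-143539500, intergenic) held 38.7 FPM in cecum and 31.9 FPM in tumor Th2 cells, with 22 fragments in 17 nuclei and 14 in 11, against 3 and 8 fragments in the other CD4 types (0.300 and 0.569 FPM; log2 7.01, 5.27 to 9.39, and 5.81, 4.46 to 7.27). No other label exceeded 2.34 FPM in cecum or 1.14 FPM in tumor. A pair of adjoining tiles far from any coding start (chr12:54459501-54460500, 196 kb from Sptssa) was shared with IL10- Treg: its left tile held 36.9 and 27.3 FPM in Th2 cells, 21.99 and 14.3 FPM in IL10- Treg cells and 1.402 and 0.853 FPM in the other CD4 types. A tile inside Arhgef3 (chr14:27265001-27265500) held 22.9 and 22.8 FPM (13 and 10 fragments) against 0.701 and 1.07 FPM (7 and 15 fragments; log2 5.03 and 4.42), and no other label exceeded 1.999 FPM in cecum or 1.67 FPM in tumor. A tile inside Erich6 (chr3:58625001-58625500) held 24.6 and 22.8 FPM, with Rorgt gdT next at 16.2 and 6.59 FPM. A tile inside Coro2a (chr4:46571501-46572000) held 29.9 and 31.9 FPM against 1.101 and 2.13 FPM (log2 4.76 and 3.90).

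Against IL10- Treg, the tile with most Th2 fragments lay inside 2700097O09Rik (chr12:55060001-55060500), with 73.8 and 50.1 FPM against 3.33 and 1.55 FPM (log2 4.47, 3.45 to 5.63, and 5.01, 3.84 to 6.32). A tile inside Runx1, a factor of T cell development (chr16:92748001-92748500), held 70.3 and 36.4 FPM against 3.33 and 3.79 FPM (log2 4.40 and 3.27), and PD1+ CD4 cells in tumor had 30.4 FPM there. A tile inside Smarca2, a chromatin remodeller gene (chr19:26752501-26753000), held 33.4 and 22.8 FPM against 1.999 and 2.24 FPM (log2 4.06 and 3.35). The next label was Tfh-like in cecum (28.6 FPM) for the tile in 2700097O09Rik and Th17 in both libraries for the tile in Smarca2 (6.89 and 5.56 FPM).

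**Figure D5:**
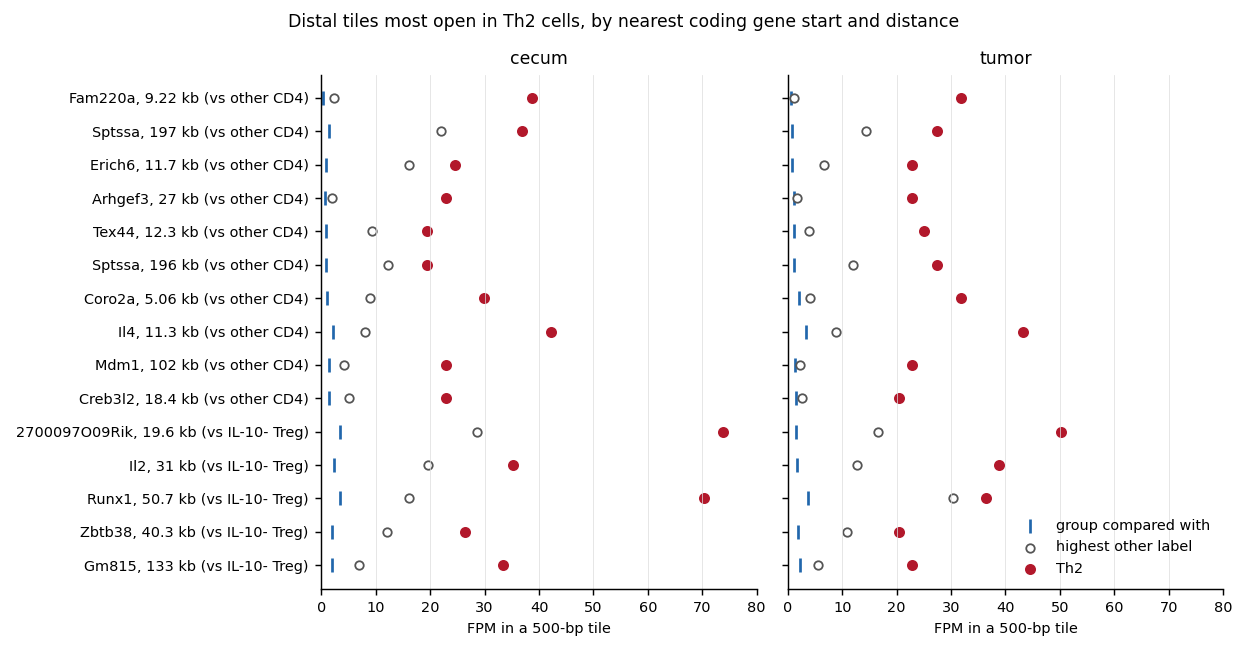
FPM in 15 named distal tiles for Th2 cells, the cells they were compared with and the highest other label, in cecum and in tumor. The tile near Fam220a is at 38.7 and 31.9 FPM in Th2 cells and at no more than 2.34 FPM in any other label.

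For likeness over all gene windows, each compared label was thinned to the Th2 number of fragments. In cecum 2 labels were not compared: newly activated CD4, with 426832 fragments against 568803 of Th2 cells, and PD1+ CD4, with 14 nuclei. Of the labels compared, Th2 cells in cecum were most like IL10- Treg (Pearson r = 0.900 across genes), then Mucosal Th1 (0.894), and least like CCR7+ CD4 (0.840). In tumor they were most like newly activated CD4 (0.887), which had not been compared in cecum. Mucosal Th1 followed (0.881), with IL10- Treg at 0.878 and CCR7+ CD4 again last (0.838). Over distal tiles IL10- Treg came first of the same compared labels in both libraries, with r = 0.521 in cecum and 0.457 in tumor, where Rorgt gdT followed at 0.452. These values are descriptions across features of the same libraries, and most neighbours in the order differed by less than 0.01.

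Between tissues, Th2 cells differed in few windows. Of 8194 windows with at least 50 Th2 fragments over both libraries, 28 were higher in tumor (0.342%) and 32 lower (0.391%), and of the 3589 with at least 100, 1 was higher (0.0279%) and 0 lower. Ptpre, a receptor tyrosine phosphatase gene, was that one, with 87.9 FPM in cecum and 178 FPM in tumor (log2 tumor over cecum 1.02, 0.48 to 1.56), and the other CD4 types went the same way (0.52, or 0.24 without PD1+ CD4). Naglu, a lysosomal enzyme gene, held 128 and 63.8 FPM (log2 -1.01, -1.69 to -0.36), and stayed inside the 2-fold line on the log2(FPM + 1) scale. Ankrd16 (log2 0.97), Pacs2 (0.88) and Srebf1, a regulator of lipid synthesis (0.87), followed at the upper end, where the other CD4 types had -0.01, 0.17 and -0.02.

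For Gata3, Pparg, Il5 and Il13 no difference between tissues was detectable at this depth. Gata3 had a log2 ratio of tumor over cecum of -0.16 (-0.48 to 0.16), Pparg -0.01 (-0.55 to 0.51), Il5 -0.01 and Il13 -0.10 (-0.76 to 0.55). In the other CD4 types the Il13 window was more open in tumor (1.37, 1.08 to 1.67), and so were Pparg (0.89) and Il4 (0.68, 0.31 to 1.06), whereas Il4 in Th2 cells was -0.69 (-1.52 to 0.09). These pools differ in make-up, and without PD1+ CD4 the values were 0.36 (-0.02 to 0.73) for Il13, 0.62 (0.25 to 1.01) for Pparg and -0.03 (-0.51 to 0.44) for Il4. Klrg1, an inhibitory receptor of tissue lymphocytes, was lower in tumor Th2 cells, with 87.9 and 34.2 FPM (50 and 15 fragments; log2 -1.36, -2.30 to -0.51). Furin, a protein-cutting enzyme, held 176 and 105 FPM (-0.75, -1.28 to -0.23) and stayed inside the 2-fold line. In the other CD4 types the same windows were 0.27 and 0.49, and without PD1+ CD4 -0.11 and 0.38. Il3 held 42.2 and 15.9 FPM (-1.40, -2.86 to -0.15), and Calca was -1.06 (-2.27 to 0.03), both below the minimum of 50 fragments. Il1rl1 was 0.50 (0.00 to 0.99) in Th2 cells and 0.60 in the other CD4 types (0.31 without PD1+ CD4). With 1 library per tissue, the intervals hold counting error only and say nothing about the spread between animals.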

How the data were processed

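T cells sorted from AKP tumors and from adjacent tumor-free cecum were profiled as nuclei, with 1 ATAC library per tissue. The authors aligned the reads to mm10 with Cell Ranger ARC 2.0.0, and deposited fragment lists, in which each line gives a barcode, an interval and a read count, and a table of cell labels made from RNA clusters. Deposited read counts per fragment were not used as weights: each line was counted as 1 fragment. RNA of the same nuclei was not analysed here.

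Barcodes were matched to the label table within each library. Fragments with an end in a gene span plus 5 kb on each side, or in a 500-bp tile, were summed per label and scaled to 1000000 fragments. Positions of 21888 protein-coding genes came from RefSeq (GRCm38.p6). Strand was given for 17492 of them, and for the other 4396 both ends were treated as starts. Calls used log2(FPM + 1) past 2-fold in both libraries, with at least 50 fragments (genes) or 20 (tiles) over both sides in each library. Ratios of named genes are ratios of counts with exact conditional 95% intervals, and shares have Clopper-Pearson intervals. Fragments are not fully independent molecules and cells are not replicates, so the intervals cover counting error only. The lowest depth, 438981 Th2 fragments in tumor, makes 1 fragment worth 2.28 FPM.

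Named genes were the members of the gene lists, the cell type markers, the 15 highest and lowest windows against other CD4 types, the 10 highest and lowest against IL10- Treg, and the 10 highest and lowest between tissues with at least 100 fragments. Genes, lists and comparisons were chosen with earlier results of these data known. Labels with under 50 nuclei in a library were not ranked, and doublets were not called. Some details of the genotype and 1 listed gene are not reported here. Alternatives changed the window, scaling, pseudocount, minimum, distance and the nuclei used. Sequence was used for promoters only, so distal tiles carry no motif search. Counting was compiled with numba 0.67.0, run under Python 3.11.15 with numpy 2.4.6, and tested on simulated data. Intervals came from scipy 1.17.1, tables were handled in pandas 2.3.3, and plots were drawn in matplotlib 3.10.9.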

Additional observations from a re-analysis of the deposited data

Results flagged for a closer look

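Of the named genes, 3 had ratios of opposite sign in the libraries with both intervals clear of 0. The difference between the libraries was not tested. Pcf11 and Srebf1 were named for a high ratio of tumor over cecum in Th2 cells, a choice that itself favours opposite signs. The intervals do not allow for that choice, and both comparisons use the same Th2 counts. Havcr2, the inhibitory receptor TIM-3, had a log2 ratio of Th2 over other CD4 types of 0.56 in cecum and -0.74 in tumor, but -0.24 (-0.90 to 0.35) in tumor without PD1+ CD4 in the pool. Pcf11, a factor of transcript cleavage, had -0.45 in cecum and 0.47 in tumor against other CD4 types, and -0.55 and 0.39 against IL10- Treg. Srebf1, a regulator of lipid synthesis, had -0.52 and 0.36 against other CD4 types (0.32, -0.04 to 0.65, in tumor without PD1+ CD4), and -0.57 and 0.54 against IL10- Treg.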

How the results depend on the processing

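No paired analysis was possible because each tissue had 1 ATAC library and no replicates. Of 1001 values for named genes under alternatives, 928 were counted as the same, 53 as moved and 20 as changed in sign. A value counted as the same could still shift. Il17f in cecum against other CD4 types went from 1.43 to 2.30 without nuclei above 3 times the median. Against other CD4 types, windows higher and lower numbered 22 and 85 within 1 kb of the gene start, 55 and 62 with a pseudocount of 5 FPM, 207 and 477 with no minimum, 26 and 69 with at least 200 fragments, and 20 and 55 with at least 10 expected. Type 2 genes higher numbered 2 of 24 within 1 kb, 3 of 26 with at least 200 fragments and 3 of 26 with 10 expected, against 12 of 40, and Th1 and Th17 genes lower numbered 2 of 13 within 1 kb, against 4 of 20. Against IL10- Treg the counts were 6 and 37 within 1 kb, 100 lower with 5 FPM, 236 and 571 with no minimum, 5 and 41 with 200 fragments, and 25 higher with 10 expected. Between tissues they were 1593 and 1992 with no minimum, and 0 and 0 with 200 fragments. For distal tiles the number tested changed as well, so shares of the tested tiles are given. Against other CD4 types, tiles higher and lower numbered 642 and 3714 without nuclei above 3 times the median (2.08% and 12.0%). They were 387 and 2169 with at least 40 fragments (1.60% and 8.94%) and 661 and 3786 beyond 10 kb (2.24% and 12.8%). With 5 expected they were 28 and 313 (0.500% and 5.59%), and 3757 were lower without PD1+ CD4 in the pool (9.97%). The main shares were 2.11% and 11.9%. Against IL10- Treg, in the same order, they numbered 187 and 908 (2.16% and 10.5%), 93 and 576 (1.42% and 8.77%), 249 higher (2.44%), and 35 and 636 (0.593% and 10.8%). With 20 fragments of the compared cells alone 169 were higher (1.22%), and the main shares were 2.30% and 10.3%. Of tiles chosen in tumor and read by the compared cells alone, 55.2% and 64.6% were past 2-fold in cecum against other CD4 types and IL10- Treg. The shares of CD4 labels (2.93% and 1.89%) and the likeness over distal tiles (0.521 and 0.457) differed from the values over all labels and gene windows by construction. Shares of Th2 nuclei with a fragment were 28.6% and 30.9% for Gata3 and 10.4% and 1.82% for Il13 at 1000 fragments per nucleus, and 68.9%, 87.9%, 37.8% and 37.9% without thinning. Leaving out PD1+ CD4 turned some smaller tumor ratios, such as Tbx21 and Bhlhe41, from below 0 to 0.25 and 0.15. Among the 1001 values, signs were counted as changed only within 1 kb of the gene start. Against other CD4 types these were Aldh1l1 (-0.49 in cecum and -0.58 in tumor), Efcc1 (-1.05 in tumor), Fez1 (-0.14 and -0.19), Gata2 (-0.93 in cecum), Il17f (-0.38 in tumor), Il9 (-0.26 and -0.10), Kif3a (-0.49 in cecum) and Zfp536 (-0.26 and -0.19). Against IL10- Treg they were Aldh1l1 (-0.9998 and -1.44), Efcc1 (-0.43 in tumor), Ikzf2 (0.076 and 0.030), Il1r1 (-0.43 in tumor), Il9 (-0.23 in tumor) and Nxpe4 (-0.41 in cecum). The cause was not tested, beside the fewer fragments that a narrow window holds. Th2 depth limits single windows, where 3 fragments in tumor are 6.83 FPM.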
